A study of Mus musculus with 16 samples.

Results

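The genes described here encode the subunits of the mitochondrial respiratory chain and of ATP synthase. They were taken by current gene symbol: every probe whose symbol begins with Nduf, Uqcr, Atp5 or Cox4 to Cox8, or is Sdha, Sdhb, Sdhc, Sdhd or Cyc1. The rule found 108 probes for 86 genes among 25697 probes for 16593 genes. After a filter on detection (detection p-value below 0.05 on at least 4 arrays) 95 probes remained, and 80 member genes were tested among 10232 genes, each read from its probe with the highest mean level. The tested members comprised 32 genes of complex I, 5 complex I assembly factors of the Ndufaf series that share the prefix, 3 of complex II, 7 of complex III, 17 of complex IV, 15 of complex V and the pseudogene Ndufs5-ps. Ndufa4 was counted with complex IV, where its protein is now placed. Atp5k, Cox7b2, Cox8c, Ndufs1, Uqcrfs1 and Uqcrq did not pass the filter (detected on at most 1 array), and Sdha was not analysed here.

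Complexes I to IV pass electrons from NADH and succinate to oxygen. Complexes I, III and IV pump protons across the inner mitochondrial membrane, and complex V (ATP synthase) uses the proton gradient to make ATP. The array members are nuclear genes, and most of their products are needed in every cell with mitochondria. Complex IV (cytochrome c oxidase) is the exception in design, because several of its small subunits come in pairs: a common isoform, and an isoform of striated muscle and heart. The name muscle and heart isoform is used here without the claim that no other cell type makes it. Mouse dorsal skin carries a thin sheet of striated muscle, the panniculus carnosus, beneath the dermis, so a skin sample can hold muscle RNA as well as RNA of epidermis, follicles, dermis and fat.

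Total RNA of dorsal skin from mice 15 days old, of a mixed C57/BL6 and 129Ola strain, was hybridized to Illumina bead arrays. There were 16 arrays: 4 of control mice, whose alleles the labels do not give, 4 of Krox20-cre:Shp2fl mice (Shp2lof), 4 of Krox20-cre; Mek1fstop/+ mice (Mek1gof) and 4 of double mutants that carry both alleles (Double). Krox20 (Egr2) is active in Schwann cells and in part of the hair follicle, so the driver reaches only part of the skin's cells and the arrays read the whole tissue, where fewer cells of a type and less RNA per cell cannot be told apart. Replicates 1 and 2 of each group lay on slide 1 and replicates 3 and 4 on slide 2, and the position on the slide went with the group, so position and group cannot be told apart. Whether each array stands for its own animal is not given in the labels. Sex-linked transcripts differed between arrays within the control, Mek1gof and Double groups, so each of these groups held more than 1 animal, but how much of the spread behind the p-values is between animals is not known.

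Between 13022 and 13959 probes were detected per array, with median signals of 71.33 to 95.88. The keratinocyte genes Krt5, Krt14, Krt10, Lor and Trp63 and the fibroblast genes Col1a1 and Dcn were detected on all 16 arrays. On 3 arrays the sex-linked transcripts Xist and Eif2s3y did not form the usual pattern of 1 high and 1 low. They read 9.12 and 8.01 on Shp2lof 4, 8.82 and 6.77 on Mek1gof 2, and 6.96 and 4.39 on Double 4 (log2 levels). Eif2s3y was high, at 10.07 to 10.90, on control 1 and 3, Shp2lof 1, 2 and 3, Mek1gof 3 and 4, and Double 3. Control 2 and 4, Mek1gof 1, and Double 1 and 2 had high Xist and low Eif2s3y. In the Mek1gof and Double groups these transcripts went in part with the slide, so slide and sex cannot be fully told apart there. The calls on members are given with and without the 3 arrays.

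In skin of the double mutants the 3 tested muscle and heart isoforms of cytochrome c oxidase, Cox6a2, Cox7a1 and Cox8b, fell by 1.19, 1.03 and 1.23 on the log2 scale against control, while their common partners Cox6a1, Cox7a2 and Cox8a did not pass the test. They were the members past the threshold in that comparison, 3 of 80 against 3.88% of all genes tested, and all were lower (2.04% of all genes were called lower). In Shp2lof and in Mek1gof skin limma called 0 of the 80 members, against 2.55% and 0.508% of all genes. At an unadjusted p under 0.05 the members split into 1 higher and 7 lower for Shp2lof (8.62% and 7.11% of all genes), 0 higher and 2 lower for Mek1gof (4.94% and 4.6%), and 3 higher and 8 lower for Double (11.5% and 9.29%). These comparisons share the control arrays.

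Cox6a2 is subunit 6a of complex IV in muscle and heart; its gene lies at chr7:128205435-128206366 (GRCm38.p6). On the log2 scale the control arrays read 11.32, 11.70, 11.85 and 10.85, and the Shp2lof arrays 11.21, 11.52, 11.23 and 11.23. The Mek1gof arrays read 11.47, 11.39, 10.58 and 10.65, and the Double arrays 10.03, 9.76, 10.30 and 10.86. Double 1, 2 and 3 lay under every array of the other groups, and Double 4 lay level with control 4. The Mek1gof arrays divided by slide, high on slide 1 and low on slide 2. Their Xist levels divided the same way, 9.29 and 8.82 on slide 1 and 5.02 and 5.77 on slide 2. The Double minus control difference was -1.19 ± 0.26 (SE, 4 against 4 arrays, 2.28-fold lower, adjusted p = 0.0154, limma), with -1.62 on slide 1 and -0.77 on slide 2. The differences of Shp2lof and Mek1gof from control were -0.13 and -0.41 (adjusted p = 0.855 and 0.658).

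Cox7a1, the muscle and heart form of subunit 7a (chr7:30184171-30186030), read 10.69, 10.78, 11.08 and 10.53 on the control arrays and 9.55, 9.42, 9.66 and 10.34 on the Double arrays. The Shp2lof arrays stood at 10.36, 10.67, 10.22 and 10.75 and the Mek1gof arrays at 10.83, 10.77, 10.14 and 10.20. Control and Double arrays did not overlap, and Double 4 was again the highest of its group. The Double minus control difference was -1.03 ± 0.21 (SE, 2.04-fold lower, adjusted p = 0.0124, limma), with -1.25 and -0.80 on the slides. Shp2lof and Mek1gof differed from control by -0.27 and -0.29 (adjusted p = 0.575 and 0.719).

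Cox8b, the muscle and heart form of subunit 8 in the mouse (chr7:140898942-140900446), read 10.76, 11.05, 11.07 and 10.49 on the control arrays and 9.71, 8.80, 9.50 and 10.46 on the Double arrays. The Shp2lof arrays stood at 10.11, 10.52, 10.33 and 10.60 and the Mek1gof arrays at 10.43, 10.77, 10.05 and 10.23. Control and Double arrays did not overlap, though Double 4 and control 4 nearly met. The Double minus control difference was -1.23 ± 0.26 (SE, 2.34-fold lower, adjusted p = 0.0143, limma), with -1.65 and -0.80 on the slides. Shp2lof and Mek1gof lay at -0.46 and -0.47 from control (adjusted p = 0.411 and 0.601), 2 differences that did not pass.

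Without the 3 arrays of unusual sex-linked transcripts the Double minus control differences of Cox6a2, Cox7a1 and Cox8b were -1.40, -1.23 and -1.51 (adjusted p = 0.00927, 0.00441 and 0.0026, limma). With the Xist level as a covariate they were -1.18, -1.04 and -1.22 (adjusted p = 0.0165, 0.0123 and 0.0156). Single arrays decided some calls: without control 3 none of the 3 genes passed (-1.05, -0.93 and -1.15, adjusted p = 0.0605, 0.0502 and 0.052), without control 2 Cox6a2 and Cox8b did not (-1.10 and -1.16, adjusted p = 0.0594 and 0.0539), and without Double 2 Cox6a2 did not (-1.03, adjusted p = 0.0541). On slide 2 alone, with 2 arrays a group, none of them passed (adjusted p = 0.14, 0.101 and 0.129), and in a fit of the Double and control arrays alone Cox8b did not (adjusted p = 0.0515).

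**Figure D1:**
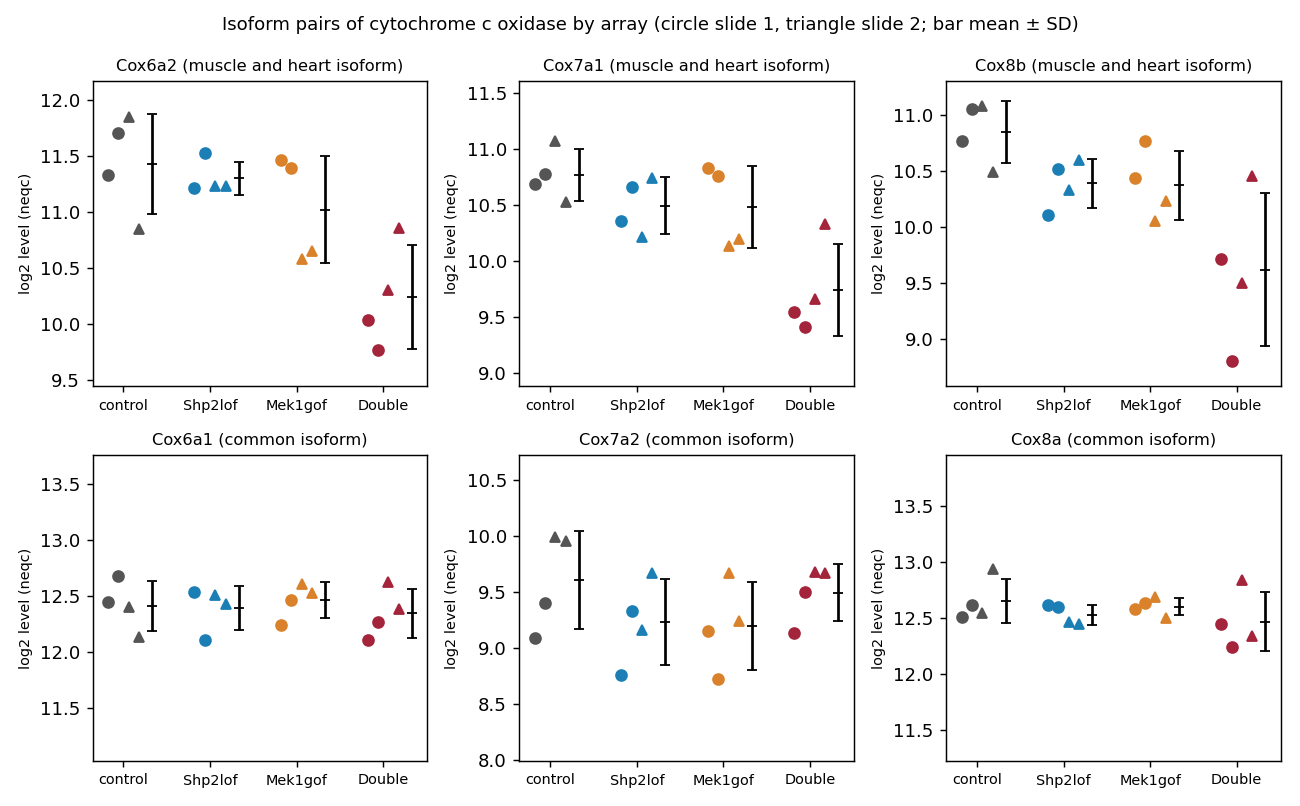
Log2 level of the 3 muscle and heart isoforms (upper row) and of their common partners (lower row) on each of the 16 arrays, by group; circles are slide 1, triangles slide 2, bars the mean ± SD of 4 arrays. Double arrays lie low for Cox6a2, Cox7a1 and Cox8b (-1.19, -1.03 and -1.23 against control) and among the other groups for Cox6a1, Cox7a2 and Cox8a.

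The common partners form the same positions of complex IV in most tissues. Cox6a1 read 12.44, 12.68, 12.39 and 12.13 in control and 12.10, 12.26, 12.62 and 12.38 in Double skin, Cox7a2 read 9.09, 9.40, 9.99 and 9.95 against 9.13, 9.49, 9.68 and 9.67, and Cox8a read 12.51, 12.61, 12.54 and 12.93 against 12.44, 12.24, 12.84 and 12.34. Double and control arrays overlapped for all 3. Their Double minus control differences were -0.07, -0.12 and -0.19 (adjusted p = 0.838, 0.827 and 0.470, limma), and another Cox6a1 probe gave -0.30. The log2 ratio of Cox6a2 to Cox6a1 within each array changed by -1.12 from control to Double skin, with no overlap and with -1.24 and -1.003 on the slides (exact permutation p = 0.0286, two-sided, the smallest that 4 against 4 arrays allow). The ratios of Cox7a1 to Cox7a2 and of Cox8b to Cox8a changed by -0.91 and -1.04 (exact permutation p = 0.0571 each). Over the 9 ratio tests made, 3 pairs in 3 mutant groups, no ratio passed after Benjamini-Hochberg adjustment (0.171 for these 3), and the ratios in Shp2lof and Mek1gof skin had exact p of 0.2 or more.

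The promoters of 2 of these pairs are shown, since in each pair the muscle and heart isoform fell in Double skin and the common isoform did not pass. Cox6a2 is named only. Each window is 250 bases of GRCm38.p6, 5′ to 3′ on the gene's strand, with every CG dinucleotide in capitals. Those of Cox7a1, Cox8b and Cox8a end just before the RefSeq gene start, and that of Cox7a2 does not. The windows are chr7:30183921-30184170 (plus strand) for Cox7a1, chr9:79759854-79760103 (minus strand) for Cox7a2, where it lies inside the gene's annotated span (chr9:79755241-79771422), chr7:140900447-140900696 (minus strand) for Cox8b and chr19:7217617-7217866 (minus strand) for Cox8a.
Cox7a1: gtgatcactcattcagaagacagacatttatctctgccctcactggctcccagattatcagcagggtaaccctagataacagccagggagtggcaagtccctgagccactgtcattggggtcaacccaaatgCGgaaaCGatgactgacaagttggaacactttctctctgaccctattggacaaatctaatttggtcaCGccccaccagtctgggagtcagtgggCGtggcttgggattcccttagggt
Cox7a2: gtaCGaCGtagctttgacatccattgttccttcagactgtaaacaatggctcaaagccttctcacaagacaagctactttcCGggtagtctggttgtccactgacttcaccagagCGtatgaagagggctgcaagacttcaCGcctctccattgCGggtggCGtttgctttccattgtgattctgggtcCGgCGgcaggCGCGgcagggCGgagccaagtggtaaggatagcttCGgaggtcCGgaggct
Cox8b: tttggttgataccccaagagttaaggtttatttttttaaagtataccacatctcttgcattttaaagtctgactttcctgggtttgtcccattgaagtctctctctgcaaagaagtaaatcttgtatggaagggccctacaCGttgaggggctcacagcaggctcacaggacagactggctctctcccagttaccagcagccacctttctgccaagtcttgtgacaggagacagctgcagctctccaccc
Cox8a: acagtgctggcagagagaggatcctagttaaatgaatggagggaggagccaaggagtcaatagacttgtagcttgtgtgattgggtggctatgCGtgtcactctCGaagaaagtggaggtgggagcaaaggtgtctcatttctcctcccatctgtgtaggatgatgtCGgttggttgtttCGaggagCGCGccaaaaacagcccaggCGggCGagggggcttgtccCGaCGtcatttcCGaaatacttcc
The muscle and heart forms held 4 (Cox7a1) and 1 (Cox8b) CG dinucleotides, and the common forms 14 (Cox7a2) and 11 (Cox8a). The median was 14 over the 70 member genes with a window and 6 over all 27025 genes with one. A set of 6 short motifs was searched on both strands, and a promoter with several or overlapping matches was counted as 1. The NRF1 core (GCGCA, any base, then GCGC), whose factor is known for activating respiratory genes, was present in 10 of 70 members (14.3%, against 3.86% of all windows), and the ETS core CCGGAAG in 12 (17.1%, against 7.05%). The E-box CAGCTG, of the kind that myogenic factors bind, was in 5 members (7.14%, against 12.8%), among them Cox8b, where it starts 19 bases before the gene start. TATAAA was in 6 (8.57%, against 13%), AAGGTCA in 4 (5.71%, against 4.05%) and AAGATGG in 0 (against 4.53%). None of the 6 was found in the Cox7a1, Cox7a2 and Cox8a windows. The NRF1 and ETS cores contain CG, and the median CG count was higher in member windows than in all windows. Whether the higher shares of these 2 cores go with CG content was not tested. A match is a description of the letters, not of binding.

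The skeletal muscle level was read as the mean log2 level of 22 tested genes of a list of 25 fast-muscle and sarcomere genes. It was 11.12, 11.25, 11.30 and 10.54 on the control arrays, 10.79, 10.88, 10.73 and 10.75 on those of Shp2lof, 10.91, 10.97, 9.81 and 9.998 on those of Mek1gof and 9.47, 9.55, 10.10 and 10.77 on those of Double. Double 1 and 2 and Mek1gof 3 and 4 were low, Double 4 was as high as the Shp2lof arrays, and control and Double overlapped through control 4 and Double 4. The Double minus control difference was -1.08 (exact permutation p = 0.0571, two-sided), and Shp2lof and Mek1gof differed by -0.26 and -0.63 (exact permutation p = 0.171 each). After Benjamini-Hochberg adjustment over the 3 comparisons each stood at 0.171. Gene by gene, 10 of the 22 muscle genes fell in Double skin by limma, with a median change of -1.21, and 0 in Shp2lof and Mek1gof skin (medians -0.25 and -0.65). Among them Myot, the Z-disc protein myotilin, changed by -1.45 (log2, adjusted p = 0.00485) and Mylpf, a fast myosin light chain, by -1.25 (adjusted p = 0.00837).

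Genes of slow muscle fibres did not follow this level. Of 6 tested slow-muscle genes 0 passed in each mutant group by limma, with median changes of -0.63, -0.81 and -0.15 in Shp2lof, Mek1gof and Double, and their median slope on the muscle level was -0.76 (0 of 6 slopes passed). Their mean log2 level was 5.96, 6.35, 7.36 and 7.53 on the control arrays, 6.02, 6.09, 6.51 and 5.95 on those of Shp2lof, 5.68, 5.90, 6.18 and 5.90 on those of Mek1gof and 7.55, 6.91, 5.96 and 6.16 on those of Double. Double 1, the array with the lowest level of the fast-muscle list, had the highest slow-muscle level. The muscle level used here is therefore one of fast-muscle and sarcomere genes, and whether less muscle or another mix of fibres goes with its fall was not tested.

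Within groups, Cox6a2 and Cox7a1 rose with the muscle level, and Cox8b had a positive slope that did not pass. In a limma fit of all genes on that level with a mean for each group, the slope was 0.84 ± 0.11 for Cox6a2 (SE, adjusted p = 0.000403) and 0.62 ± 0.12 for Cox7a1 (adjusted p = 0.0109), in log2 per log2 unit of muscle level. These were the 2 of 80 members past the threshold, against 0.948% of all genes. The slope of Cox8b was 0.68 ± 0.17 (adjusted p = 0.0683). The slopes of Cox6a1, Cox7a2 and Cox8a were 0.06, -0.16 and -0.05 (adjusted p = 0.921, 0.839 and 0.930). The 80 members had a median slope of 0.01 and 43 positive slopes, and all genes a median of -0.01. Muscle level and gene level were read on the same arrays. Cox7a1 did not pass without Double 4 (slope 0.55, adjusted p = 0.122) or without the 3 arrays of unusual sex-linked transcripts (0.57, adjusted p = 0.244), and Cox8b passed without Double 1 (0.81, adjusted p = 0.0169) and in none of the other 15 fits that left out an array.

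When the muscle level was added to the comparison of groups, the Double minus control differences became -0.29 for Cox6a2, -0.36 for Cox7a1 and -0.50 for Cox8b (adjusted p = 0.564, 0.485 and 0.507, limma), and 0 of 80 members passed in each of the 6 comparisons. In Double minus control 4 members had an unadjusted p under 0.05 in that fit (11.1% of all genes). Over all genes the fit called 0.147% in Double minus control in place of 3.88%. Muscle level and group go together in part on these arrays, so the part of the difference that goes with this level and the part that goes with genotype cannot be told apart.

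**Figure D2:**
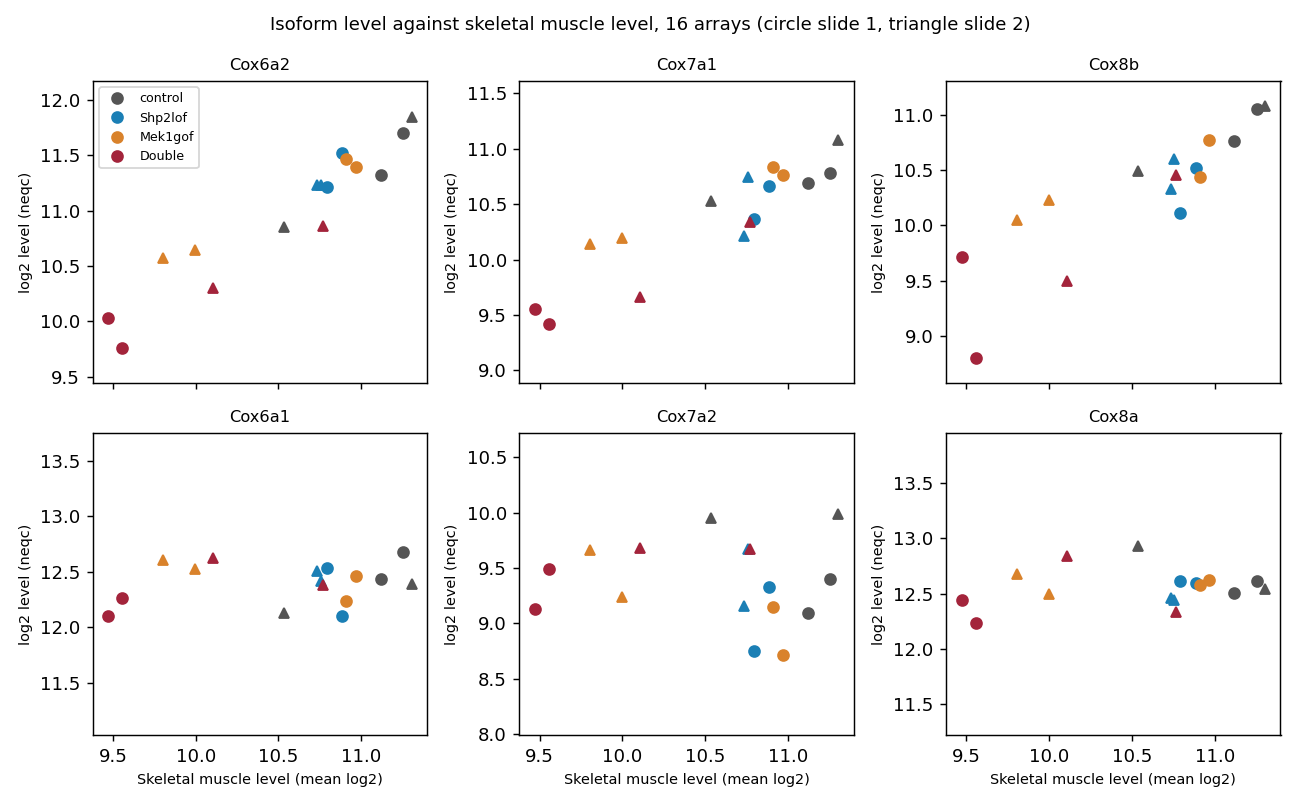
Log2 level of each isoform against the skeletal muscle level (mean log2 of 22 genes) on 16 arrays; colours are groups, circles slide 1, triangles slide 2. The slopes within groups were 0.84 and 0.62 for Cox6a2 and Cox7a1, which passed the test, 0.68 for Cox8b, which did not (adjusted p = 0.0683), and 0.06, -0.16 and -0.05 for the common partners in the lower row.

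None of the remaining 77 members passed the test in a mutant group. With Cox6a2, Cox7a1 and Cox8b set aside, Double minus control differences ran from -0.43 for Atp5pb to 0.66 for Atp5e, 0 of 77 passed by limma, and 3 were higher and 5 lower at an unadjusted p under 0.05, against 11.5% and 9.29% of all genes. Over all 80 members the median difference from control was -0.08, -0.07 and -0.08 for Shp2lof, Mek1gof and Double, beside 0.02, 0.02 and 0.03 over all genes. Below 0 lay 53, 54 and 52 of the 80, against 45.9%, 45.4% and 45.6% of all genes. The pooled SD of the per-array member median between replicates was 0.123. It is a spread of single arrays, wider than that of a difference between means of 4 arrays. Relative to all genes the members stood at -0.10, -0.09 and -0.11, and this shift was not tested. By complex the Double medians were -0.10 for I, -0.09 for II, -0.11 for III, -0.14 for IV and 0.07 for V, and complex V stood above 0 in Shp2lof and Mek1gof skin too (0.06 and 0.07). Without normalization between arrays (normexp alone) the complex V medians were -0.02, -0.12 and -0.11, while the median of all genes was 0.04, -0.15 and -0.13. Relative to all genes complex V stood at 0.03, 0.05 and 0.04 with normalization and at -0.06, 0.03 and 0.02 with normexp alone, where the relative sign turned in Shp2lof skin only. With the other deposited table, neither normalized nor background-corrected, it stood at -0.054, -0.0029 and -0.00014, below 0 in each mutant group. Array ranges did not overlap control for 10 members in the Shp2lof comparison (11.5% of all genes), 4 in that of Mek1gof (6.05%) and 11 in that of Double (12.5%).

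**Figure D3:**
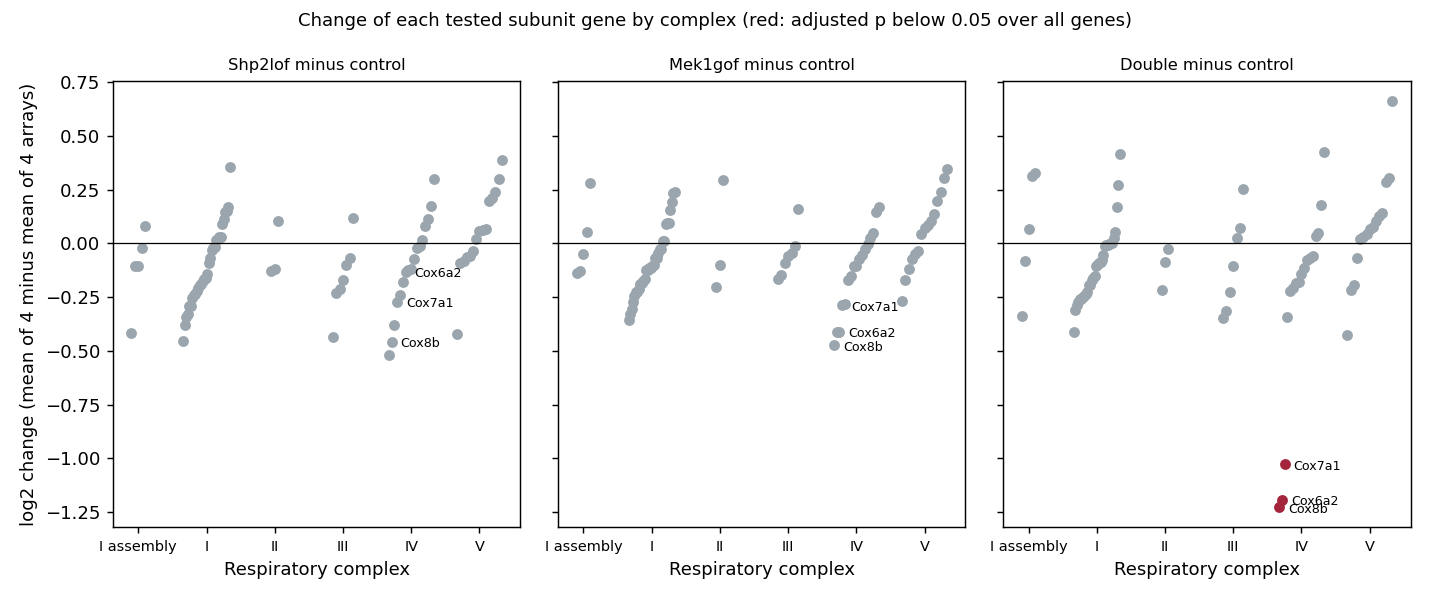
Log2 change of 79 tested members (all but the pseudogene Ndufs5-ps) against control in each mutant group, by complex; each point is a gene, red where the adjusted p is below 0.05. In the Double panel Cox6a2, Cox7a1 and Cox8b stand below -1, and Atp5e at 0.66 is the highest point, with no red point in the Shp2lof and Mek1gof panels.

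Complex I, the NADH dehydrogenase, had Ndufa6, an accessory subunit at chr15:82350139-82354291, as its largest fall in Shp2lof and Double skin. It read 11.78, 11.85, 11.56 and 11.45 on the control arrays and 11.37, 11.36, 11.18 and 10.90 on those of Shp2lof. The Mek1gof arrays stood at 11.37, 11.49, 11.13 and 11.34 and the Double arrays at 11.56, 11.31, 11.05 and 11.09. Its Shp2lof arrays all lay below control, and its Mek1gof and Double arrays overlapped control by a little. The differences were -0.46 ± 0.15, -0.33 and -0.41 (SE, adjusted p = 0.127, 0.490 and 0.125), and with slide as a block the Shp2lof and Double differences passed (adjusted p = 0.0332 and 0.0409). Ndufb10, an accessory subunit, had the largest fall in Mek1gof skin (-0.36, adjusted p = 0.784) and one of the widest spreads, from 7.22 on Double 2 to 8.97 on Double 4. Ndufab1, the mitochondrial acyl carrier protein, had the largest rise in Shp2lof and Double skin (0.36 and 0.42, adjusted p = 0.368 and 0.209), and Ndufb7 the largest in Mek1gof skin (0.24, adjusted p = 0.671). Chosen after their values were seen, Ndufs3, a core subunit, and Ndufa7 showed no overlap between control and Double arrays (-0.27 and -0.29, adjusted p = 0.211 and 0.113), and Ndufa7 passed with quantile normalization alone, with an offset of 50 and with no detection filter.

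Complex II, succinate dehydrogenase, links the chain to the tricarboxylic acid cycle. Its iron-sulphur subunit Sdhb read 10.12, 10.44, 10.35 and 10.07 in control and 10.32, 9.87, 10.51 and 10.19 in Double skin, which overlapped (-0.02, adjusted p = 0.951). A second Sdhb probe, not the one used for the gene, disagreed: it gave -0.66 in Double skin (adjusted p = 0.0315 in the fit of all kept probes), and -0.34 and -0.37 in Shp2lof and Mek1gof skin. The membrane anchors Sdhc and Sdhd differed by -0.09 and -0.22 in Double skin (adjusted p = 0.832 and 0.661), by 0.10 and -0.12 in Shp2lof and by 0.30 and -0.20 in Mek1gof skin.

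Complex III passes electrons from ubiquinol to cytochrome c. Cyc1, the cytochrome c1 that carries its haem, read 10.61, 10.81, 10.65 and 10.24 in control and 10.52, 10.60, 10.75 and 10.72 in Double skin, with full overlap (0.07, adjusted p = 0.825). Uqcrb, a ubiquinone-binding subunit, had the largest fall in Shp2lof and Double skin (-0.44 and -0.35, adjusted p = 0.243 and 0.288), and Uqcrh, the hinge protein, in Mek1gof skin (-0.17, adjusted p = 0.781). Uqcr11, a small subunit, had the largest rise in each mutant group, 0.12, 0.16 and 0.25 (adjusted p = 0.723, 0.759 and 0.287), and its Double arrays, 13.13, 13.11, 13.30 and 13.29, lay just above the control arrays, 12.87, 13.09, 12.77 and 13.09.

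In complex IV, Cox7a2l was the member closest to the threshold in Shp2lof skin. It is a relative of subunit 7a that joins complexes III and IV into supercomplexes, and it lies at chr17:83501917-83514333. It read 10.36, 10.54, 10.36 and 10.37 on the control arrays and 9.64, 9.97, 10.19 and 9.76 on those of Shp2lof. The Mek1gof arrays stood at 10.28, 10.15, 9.95 and 10.13 and the Double arrays at 10.03, 9.71, 10.19 and 10.35. The control arrays were above every mutant array, narrowly for Double 4, and it was the 1 member of 80 with no overlap with control in all 3 comparisons. The share of all genes that do so was not counted, and the 3 comparisons share the control arrays. Nothing particular to Cox7a2l is read from this count. The differences were -0.52 ± 0.15, -0.28 ± 0.15 and -0.34 ± 0.15 (SE, adjusted p = 0.0744, 0.584 and 0.199, limma). The Shp2lof call passed with quantile normalization without background correction, with array weights, and without Shp2lof 3 or Double 2. Cox4i2, the restricted partner of Cox4i1, read 7.46, 7.33, 7.34 and 7.39 on the control arrays, 7.66, 7.81, 7.56 and 7.69 on those of Shp2lof and 7.23, 7.50, 8.43 and 8.06 on those of Double, where the slide 2 arrays were the high ones (0.43, adjusted p = 0.243). Cox4i1 differed by -0.06 (adjusted p = 0.888), and Cox6b1 and the testis form Cox6b2 by -0.18 and 0.18 in Double skin (adjusted p = 0.473 and 0.662). Ndufa4 and Cox7b differed by 0.03 and 0.05 (adjusted p = 0.924 and 0.932).

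In complex V, Atp5e, the epsilon subunit at chr2:174461075-174464101, had the largest rise of all members in each mutant group. It read 7.21, 7.50, 8.16 and 8.63 on the control arrays and 7.59, 8.36, 8.46 and 8.65 on those of Shp2lof. The Mek1gof arrays stood at 7.85, 7.77, 8.54 and 8.71 and the Double arrays at 7.78, 8.54, 8.75 and 9.08. Slide 2 arrays were higher than slide 1 arrays in every group and the groups overlapped, with differences from control of 0.39, 0.35 and 0.66 (adjusted p = 0.611, 0.809 and 0.259). Within the slides the Double minus control difference was 0.80 and 0.52, with slide as a block its adjusted p was 0.0541, and with the replicate number as a block it passed (adjusted p = 0.0231). In a fit with slide as a term, Atp5e differed by 0.80 between slides (slide 2 minus slide 1, adjusted p = 0.0173, limma). Ndufb9 differed by 0.47 (adjusted p = 0.0203) and Ndufb4 by 0.57 (adjusted p = 0.0454). These were 3 of 80 members, against 0.938% of all genes. Slide went with replicate number and in part with the sex-linked transcripts, and what set the slides apart was not tested. Atp5pb, the stator subunit b, had the largest fall of the complex in each mutant group (-0.42, -0.27 and -0.43, adjusted p = 0.247, 0.692 and 0.179). Atp5g1, Atp5g2 and Atp5g3 all encode the same mature c subunit of the proton-driven ring. Atp5g3 read 14.04, 14.08, 14.20 and 13.90 in control and 14.26, 14.38, 14.31 and 14.48 in Double skin, with no overlap (0.30 ± 0.12, SE, adjusted p = 0.164), and Atp5g1 and Atp5g2 differed by 0.02 and 0.10 (adjusted p = 0.953 and 0.780).

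Direct comparisons with the single mutants called no member in the fit without a block. Double minus Shp2lof and Double minus Mek1gof each had 0 of 80 past the threshold by limma, against 0.968% and 0.283% of all genes, with 4 higher and 5 lower and 1 higher and 3 lower at an unadjusted p under 0.05 (6.01%, 6.75%, 4.96% and 4.89% of all genes). Cox6a2 differed by -1.06 ± 0.26 from Shp2lof (SE, adjusted p = 0.0537), with no overlap between the arrays, and this difference passed with slide as a block (adjusted p = 0.048). It differed by -0.78 from Mek1gof (adjusted p = 0.332), where the slides gave -1.53 and -0.03. Cox7a1 differed by -0.76 and -0.74 (adjusted p = 0.0972 and 0.231) and Cox8b by -0.77 and -0.75 (adjusted p = 0.178 and 0.348). Without Double 4 all 3 passed against Shp2lof (-1.27, -0.95 and -1.05, adjusted p = 0.0159, 0.0199 and 0.0235). In the interaction, which asks whether the Shp2lof effect differs with and without the Mek1 allele, 0 of 80 passed against 0.088% of all genes, and 1 was higher and 0 lower at an unadjusted p under 0.05 (3.11% and 4.07% of all genes). Cox6a2, Cox7a1 and Cox8b had interaction values of -0.65, -0.47 and -0.30 (adjusted p = 0.770, 0.828 and 0.928), and each turned positive on slide 2 alone.

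Other genes of mitochondria and muscle were read from lists beside the members, against 1.84% of all genes called higher and 2.04% called lower in Double skin. Of 13 tricarboxylic acid cycle genes 0 passed in each mutant group by limma (Double median -0.10), and of 9 further respiratory genes outside the rule 0 passed in each. Of 22 assembly factors 1 rose in Double skin, Cox18, which inserts a core subunit of complex IV into the membrane (0.50, adjusted p = 0.0422), and of 10 import genes 1 rose, Hspa9, the mitochondrial Hsp70 (0.52, adjusted p = 0.0230); 0 of either list passed in Shp2lof or Mek1gof skin. With 1 gene called in each, nothing particular to either list is read from these counts. Of 11 regulators of mitochondrial biogenesis Ppargc1a, the coactivator PGC-1alpha, fell in each mutant group, with changes of -1.12, -1.41 and -1.37 (log2, adjusted p = 0.0107, 0.00714 and 0.00363), and the other 10 did not pass. Of 13 fatty acid oxidation genes 2 fell in Double skin, Acadl, an acyl-CoA dehydrogenase (-0.74, adjusted p = 0.0112), and Cpt1b, the carnitine transferase of muscle and brown fat (-0.92, adjusted p = 0.0369). Of 7 genes of muscle metabolism 5 fell in Double skin (median -1.32), among them Fabp3, the muscle fatty acid binding protein (-1.71, adjusted p = 0.0068).

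Markers of the other cell types that skin can hold were read in the same way. Of 6 brown adipocyte genes 2 rose in Double skin, Elovl3 (1.23, adjusted p = 0.00341) and Kcnk3 (0.67, adjusted p = 0.00866), and 2 fell, Ppargc1a and Cpt1b, already counted among the regulators and the oxidation genes. Elovl3 also rose in Mek1gof skin (1.42), and which cells of the skin its signal came from was not tested. Ppargc1a and Cpt1b are used by muscle and by brown fat, and the share of either tissue in their change was not tested. Nor was it tested for the falls of Cox6a2, Cox7a1 and Cox8b. Of 6 fibroblast genes 2 fell in Shp2lof skin, the collagen genes Col1a1 and Col1a2 (-1.14 and -1.07, adjusted p = 0.0024 and 0.0286), with a list median of -0.69, where 1.51% of all genes were called higher and 1.05% lower. Of 5 smooth muscle genes Acta2, smooth muscle actin, rose in Shp2lof skin (0.65, adjusted p = 0.0366), and Des, the desmin of smooth and striated muscle, fell in Double skin (-0.79, adjusted p = 0.0387). Of 3 erythroid genes Slc4a1, the anion exchanger of red cells, fell in Shp2lof and Double skin (-0.76 and -0.58, adjusted p = 0.0158 and 0.0497). The other members of these lists did not pass, and of 8 white adipocyte, 6 keratinocyte, 4 endothelial, 3 macrophage and 3 Schwann cell genes 0 passed in each mutant group by limma. The part of these cell types in the members' values was not tested.

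The members also differed in how far they varied over the 16 arrays. Cox6a2, Cox8b, Atp5e, Cox7a1 and Ndufb10 had the widest spreads, with SDs of 0.601, 0.586, 0.540, 0.489 and 0.482 and, for Cox8b, a range of 2.27 log2 units. Ndufa13, named after its values were seen, had the smallest SD, 0.0844. The widest 5 thus hold the 3 muscle and heart isoforms and Atp5e, the member with the largest difference between slides.

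**Figure D4:**
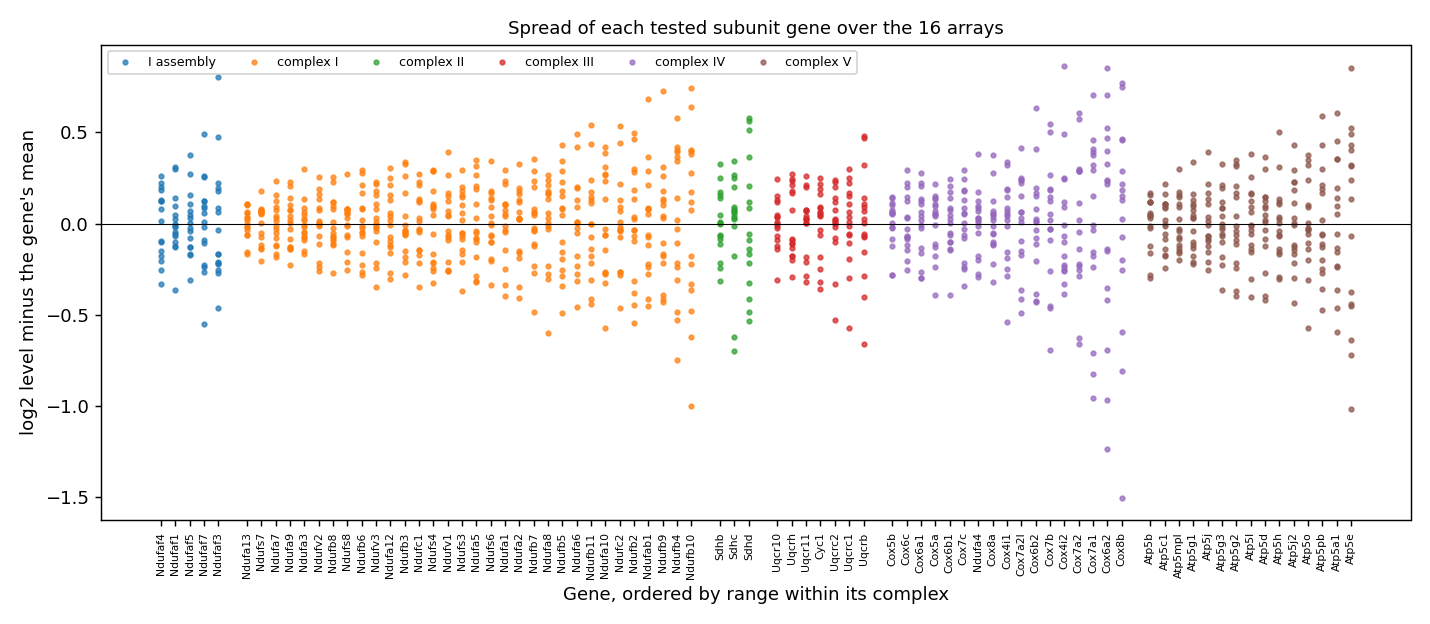
Log2 level minus the gene's mean on each of 16 arrays for 79 tested members (all but Ndufs5-ps), grouped by complex and ordered by range. Cox8b, Cox6a2, Atp5e and Cox7a1 spread widest (SD 0.586, 0.601, 0.540 and 0.489), and Ndufa13 least (0.0844).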

How the data were processed

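Bulk RNA of dorsal skin was read on 16 Illumina arrays. The deposited table holds the mean bead intensity per probe on a linear scale, not normalized between arrays as far as its values show, and a deposited detection p-value per probe. GenomeStudio is named in the submitters' processing notes, with no version given in the sources used here. A second deposited table repeats each intensity to within 0.05. The number of arrays limits the precision, and intensities give no counting depth.

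The neqc function of limma 3.58.1 (R 4.3.3) corrected the background and quantile-normalized the intensities (offset 16, log2 scale, which shrinks changes near background). Probes with a detection p-value below 0.05 on at least 4 arrays were kept. Of all probes 23978 had 1 symbol, 0 several and 1719 none, and 23962 were matched by Entrez identifier to the RefSeq gene table of GRCm38.p6. The probe with the highest mean level stood for its gene, and 12 members had several kept probes.

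A linear model with group means took all arrays (lmFit and eBayes, 12 residual and 5.74 prior degrees of freedom), with Benjamini-Hochberg adjustment over 10232 genes and a threshold of 0.05. A second fit took the skeletal muscle level (mean log2 of 22 genes) as a slope. The scripts were tested on simulated data. Members, lists (18) and tests were chosen with earlier results of these data known. Named members were those past the threshold, the isoform pairs, Sdhb, Sdhc, Sdhd and Cyc1, and the largest rise and fall of each complex in each mutant group; from the lists, genes past the threshold with the smallest p, at most 6 a comparison. Others were chosen after their values were seen. The alternatives were other normalizations, offsets, filters and probes, slide or replicate number as a block, each slide alone, array weights and arrays left out. Leaving out 3 arrays with unusual sex-linked transcripts, the Xist covariate and the isoform ratios were added later, with the data in view. Python 3.11.15 with matplotlib 3.10.9 drew the plots.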

Additional observations from a re-analysis of the deposited data

Results flagged for a closer look

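A set of 124 groups of 4 arrays was looked at, over the named members and the per-array summaries, and 6 held an array far from the other 3 (a gap to the nearest array, as a share of the range, above Dixon's critical value); chance flags about 1 in 20. For Cox6a2, Shp2lof 2 read 11.52 while the nearest Shp2lof array read 11.23. For Cox6b1, Shp2lof 3 read 12.84 (nearest 13.03) and Mek1gof 2 read 13.19 (nearest 12.92). For Cox7a2l, control 2 read 10.54 (nearest 10.37), so the control arrays of that gene lay close together with 1 above them. For Uqcrh, control 4 read 13.19 (nearest 13.48) and Mek1gof 3 read 13.54 (nearest 13.18). None of these 6 values lies in the Double group. What set these arrays apart was not tested.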

How the results depend on the processing

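Cox6a2, Cox7a1 and Cox8b kept a negative Double minus control difference under each alternative run, from -1.62 to -0.29, -1.25 to -0.36 and -1.65 to -0.50, and stayed past the threshold under 14, 14 and 13 of 16 alternatives other than leaving out an array. Leaving out each array in turn gave 0 to 3 members called in Double minus control, 0 to 3 in Double minus Shp2lof, 0 to 1 in Shp2lof minus control and 1 to 3 slopes, and it took the Shp2lof difference of Cox6a2 from -0.33 to 0.0070. Without normalization between arrays, with normexp or the second deposited table, the member medians moved to -0.25 and -0.23 in Mek1gof, -0.24 and -0.24 in Double and -0.15 and -0.14 in Double minus Shp2lof, where Cox6a2 and Cox7a1 passed (2 called in each, against 1.73% and 1.74% of all genes). With normexp all genes shifted in those comparisons too, by -0.15, -0.13 and -0.17, and relative to all genes the members stood at -0.09, -0.11 and 0.02. In Shp2lof minus control 1 member passed with quantile normalization alone (Cox7a2l), with array weights (Cox7a2l) and with slide as a block (Ndufa6), against 2.79%, 4.53% and 3% of all genes. In Double minus Shp2lof 1 passed, Cox6a2, with slide as a block (against 1.54% of all genes) and in a fit of the groups compared alone (0.811%). It was also the 1 that passed without the 3 arrays of unusual sex-linked transcripts (1.02%), where 1 slope also stayed past the threshold. Slide 1 alone called 3 in Double minus Shp2lof and 3 in Double minus Mek1gof (2.83% and 1.88% of all genes), and slide 2 alone called 1 in Double minus control (Cox4i2, higher, against 6.37% of all genes); neither slide alone called a slope (0 in each). On slide 2 alone the interactions of Cox6a2, Cox7a1 and Cox8b turned to 0.085, 0.15 and 0.16, and on slide 1 alone the Mek1gof difference of Cox7a1 turned to 0.061. With the muscle level as a covariate 0 passed in Double minus control, and the differences of Cox6a2 in Shp2lof and Mek1gof and of Cox7a1 in Mek1gof turned to 0.087, 0.12 and 0.10. Without the 3 muscle and heart isoforms 0 members and 0 slopes were called, by construction. Other causes were not tested. A tally took 208 values of counts and medians under the alternatives, without the fits that left out a single array and without the replicate block. Of these, 185 stayed within 1.5 times the count or 1 pooled SD of the median. That SD, 0.123, is larger than each member median of the main fit. A median could therefore vanish or change sign and still be counted as unmoved, as were counts of 0 that stayed at 0. The tally is therefore not a measure of how firm the results are.

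The deviations of same-numbered arrays of different groups had a low mean correlation, 0.0708 (lowest -0.229). Yet 10 of 16 arrays correlated best with an array of their own number, though most of the arrays compared bore another number. Arrays of other numbers gave a mean correlation of 0.0186 on the same slide and -0.0442 on the other slide. Whether the numbers pair the samples is not given in the labels, and the main fit treats them as unpaired. With the replicate block 4 members passed in Double minus control, the 3 isoforms (adjusted p = 0.0231, 0.0195 and 0.0211 for Cox6a2, Cox7a1 and Cox8b) and Atp5e, and it changed no other count of members called.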
